A study of Mus musculus with 2 samples.

Results

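The Sox genes of neural progenitors and neurons described here were Sox1, Sox2, Sox4, Sox5, Sox6, Sox11 and Sox21, a named set of 7 among the 21883 protein-coding genes of the RefSeq table for GRCm38.p6, the assembly of mm10. Their chromatin loops were taken from lists made by Hi-C, which ligates and sequences DNA segments that lie close together in the nucleus. A loop is a pair of anchors joined by paired-end tags (PETs). A loop was placed at a gene end when an anchor came within 2.5 kb of the start or end of the gene, and in the gene body when an anchor overlapped the gene and no anchor of that loop reached a gene end. By this rule 28 of the 14779 sham loops and 26 of the 15592 MCAO loops belonged to the 7 genes.

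The tissue was mouse cerebral cortex of the operated side, taken from the ischemic territory. MCAO mice underwent occlusion of the middle cerebral artery by an intraluminal filament for 1 h, with isoflurane anesthesia, followed by reperfusion for 6 h. Sham mice were operated on under the same anesthesia, with no filament advanced and no occlusion, and recovered for 6 h. The protocol names 3 cortices per group, but a single loop list was available for each, so differences between the lists could be neither tested nor checked in replicates. The sources used here state no strain, age or sex. All intervals are exact 95% intervals of counting error. Cortex holds many cell types, and a loop list cannot tell a change within cells from a change in which cells were present.

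Sox proteins bind DNA through a high mobility group (HMG) box that bends the double helix, and they usually act with partner factors. The SoxB1 genes Sox1 and Sox2 keep neural stem and progenitor cells undifferentiated, and the SoxB2 gene Sox21 counters them. The SoxC genes Sox4 and Sox11 act in newly formed neurons, and the SoxD genes Sox5 and Sox6, whose proteins lack a transactivation domain of their own, shape the subtype and position of cortical neurons and interneurons. Such developmental regulators often stand alone in long stretches without other genes, from where distal enhancers reach them. In the adult cortex Sox2 is best known in astrocytes and other glia.

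The sequences are the 250 bases before the annotated start, from RefSeq on GRCm38.p6, written 5' to 3' along the gene. Sox2, Sox4, Sox11 and Sox6 are shown because an anchor of both lists covered the start. Of the Sox6 windows the one covered by the most loops is shown. Sox1 is shown because it had no listed loop, and Sox21, which also had none, is not shown. Capitals mark a Sox motif (ACAATG or ACAAAG) or a core of the motif of the insulator protein CTCF (AGGGGGC or AGGTGGC), each searched on both strands. The 2 motif sets do not overlap in these windows.
Sox2, chr3:34649745-34649994, plus strand: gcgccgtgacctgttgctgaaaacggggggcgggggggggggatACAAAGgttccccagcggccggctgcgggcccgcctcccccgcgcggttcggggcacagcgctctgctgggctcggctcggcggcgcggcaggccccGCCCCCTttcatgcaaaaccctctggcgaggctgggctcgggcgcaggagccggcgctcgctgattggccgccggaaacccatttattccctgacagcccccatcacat
Sox4, chr13:28953700-28953949, minus strand: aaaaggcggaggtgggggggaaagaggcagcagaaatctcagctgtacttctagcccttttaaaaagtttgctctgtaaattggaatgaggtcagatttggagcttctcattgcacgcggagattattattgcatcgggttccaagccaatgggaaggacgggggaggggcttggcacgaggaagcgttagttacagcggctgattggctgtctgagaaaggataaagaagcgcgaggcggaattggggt
Sox11, chr12:27342719-27342968, minus strand: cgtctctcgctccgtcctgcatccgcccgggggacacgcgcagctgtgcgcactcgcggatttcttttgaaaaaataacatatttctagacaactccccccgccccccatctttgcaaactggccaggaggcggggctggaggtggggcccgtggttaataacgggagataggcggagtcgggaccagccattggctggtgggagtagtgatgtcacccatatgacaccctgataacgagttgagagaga
Sox6, chr7:116038745-116038994, minus strand: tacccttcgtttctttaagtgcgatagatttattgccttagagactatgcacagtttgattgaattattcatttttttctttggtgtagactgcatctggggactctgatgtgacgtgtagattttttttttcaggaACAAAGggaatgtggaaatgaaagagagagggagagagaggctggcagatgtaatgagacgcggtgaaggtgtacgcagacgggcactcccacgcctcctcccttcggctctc
Sox1, chr8:12395269-12395518, plus strand: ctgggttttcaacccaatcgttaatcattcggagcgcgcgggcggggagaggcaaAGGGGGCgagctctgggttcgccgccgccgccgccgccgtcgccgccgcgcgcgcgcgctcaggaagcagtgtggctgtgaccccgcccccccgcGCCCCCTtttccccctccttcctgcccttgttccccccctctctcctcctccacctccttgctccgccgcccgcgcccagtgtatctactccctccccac

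The Sox2 window held 1 Sox motif and 1 CTCF core, and the Sox6 window 1 Sox motif. The windows of Sox4 and Sox11 held neither motif. The Sox1 window held 2 CTCF cores on opposite strands. The window of Sox21, the other gene without a loop, held neither motif. Of all 32851 RefSeq promoter windows of this length, 25.2% held a Sox motif and 14.0% a CTCF core, and a match describes letters and not binding. The ratio of observed CpG to the number set by base composition was 0.987 at Sox1, 0.833 at Sox2, 0.810 at Sox11, 0.801 at Sox4, 0.735 at the Sox6 window shown and 0.641 at Sox21, against a median of 0.373 over all windows. RefSeq listed 6 start windows for Sox6, of which the other ratios were 0.140, 0.187, 0.188, 0.195 and 0.439, so that 4 of the 6 lay below that median. It listed a single window for Sox5, with a ratio of 0.308. That window and all 6 of Sox6 lie inside their genes. The other Sox6 windows, from the lowest position up, held 0, 3, 1, 4 and 1 Sox motifs, and the first of them 1 CTCF core.

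Sequencing depth was 34974213 PETs in sham and 40550536 in MCAO, 1.16 times as many. Both lists begin at 10 PETs per loop, which corresponds to 0.286 PETs in sham and 0.247 in MCAO for every 1000000 PETs of the library. Values scaled in this way are called depth-scaled, and ratios of PETs are depth-scaled and given as MCAO over sham. A loop missing from one list may lie just under that minimum. Loops with 10 to 14 PETs were common, with a share of 64.0% in sham and 59.7% in MCAO. Over all listed anchors the median number of reads per kb of anchor was 22.4 in sham and 25.5 in MCAO.

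Loops stood at 5 of the 7 genes in each list, and these were the same 5 genes: Sox2, Sox4, Sox5, Sox6 and Sox11. Among all protein-coding genes 43.0% had a gene-end loop in sham and 47.9% in MCAO. Gene-end loops numbered 14 in sham and 15 in MCAO. By gene they numbered 2 and 2 at Sox2, 3 and 4 at Sox4, 4 and 4 at Sox11, 1 and 1 at Sox5 and 4 and 4 at Sox6. Thus 1 of the 7 genes had more gene-end loops in MCAO and 0 had fewer, while 28.7% of all genes had more and 20.7% fewer. Genes with at least 4 gene-end loops made up 2.40% of all genes in sham and 3.85% in MCAO, and Sox11 and Sox6 reached this number in both lists and Sox4 in MCAO. Body loops occurred only in the long genes: 11 in sham and 6 in MCAO at Sox5, and 3 and 5 at Sox6. The numbers at gene ends were nearly equal, but not every loop had a counterpart, a matching loop in the other list. By the rule given below, 8 of 14 gene-end loops in sham and 7 of 15 in MCAO had one, 57.1% and 46.7%. Of gene-end loops at all genes 34.3% and 28.2% had one.

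**Figure D1:**
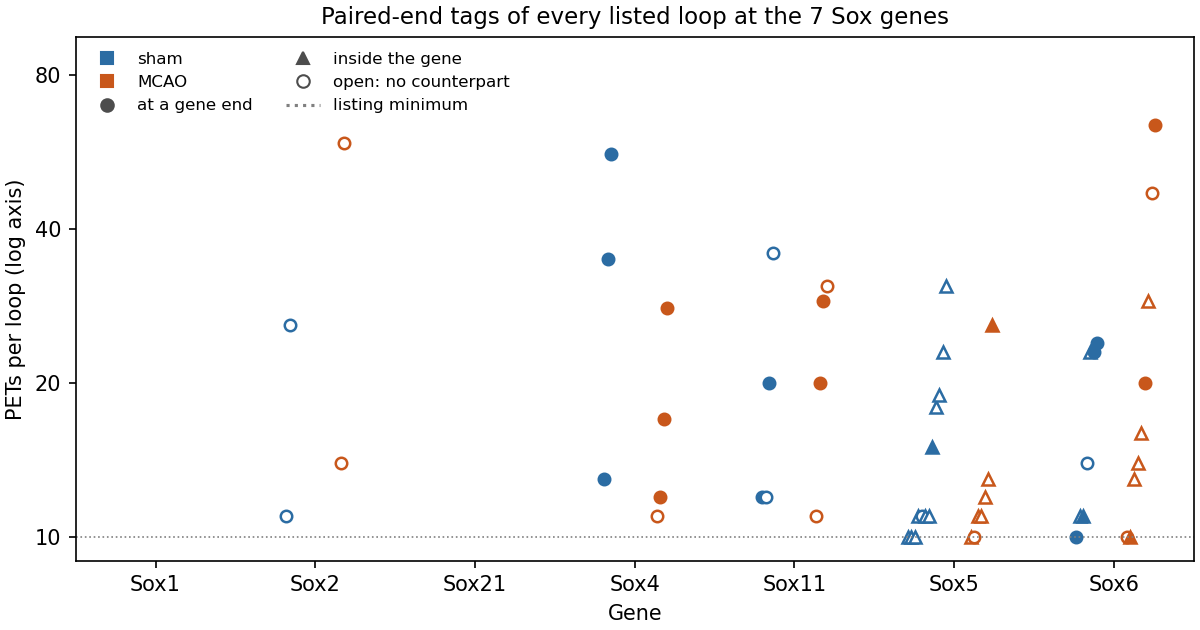
PETs of every listed loop (vertical log axis) at each of the 7 Sox genes, sham in blue and MCAO in orange, circles for loops at a gene end and triangles for loops inside a gene. Filled symbols have a counterpart in the other list and open ones have none, and the dotted line is the listing minimum of 10 PETs. The medians, 13.5 in sham and 14.0 in MCAO, lie near that line, and the highest in MCAO is the 64-PET loop of Sox6.

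PETs of the 54 loops ran from 10 to 56 in sham and from 10 to 64 in MCAO, with medians of 13.5 and 14.0. The medians over all listed loops were 12.0 and 13.0. Loops at the Sox genes were long: their median span, from anchor midpoint to anchor midpoint, was 619 kb in sham and 624 kb in MCAO, against 377 kb and 309 kb over all loops. Among gene-end loops alone the Sox genes had medians of 645 kb and 661 kb, and gene-end loops of all genes 358 kb and 291 kb.

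Sox2, a core factor of neural stem cells, had 2 loops in each list and no counterpart between them. Sox2 lies on chromosome 3 at 34649995 to 34652461 with 569 kb to Dnajc19 on its upstream side and 1102 kb to Atp11b on its downstream side. In sham a loop of 11 PETs and 71.0 kb joined an anchor that stopped 2059 bases short of the Sox2 start to the upstream anchor 34565138 to 34577450. Its far anchor lay in Sox2ot, the long noncoding RNA gene that surrounds Sox2. The other sham loop carried 26 PETs over 674 kb to 35319627 to 35368034, downstream of Sox2, where it touched the noncoding genes Gm35425 and Gm38512. In MCAO the strongest loop of the gene carried 59 PETs (44.9 to 76.1) over 434 kb to 35058395 to 35119973, and a weaker one of 14 PETs reached 833 kb to 35475716 to 35487089. The far anchors in the stretch between Sox2 and Atp11b were thus a single place in sham and 2 other places in MCAO. Their PETs, 26 in sham and 73 in MCAO, came with anchors of unequal size: the gene-side anchor of the 59-PET loop was 90.2 kb wide and that of the 26-PET loop 60.6 kb. The deposited density, in depth-scaled PETs per kb of both anchors, was 0.00959 for the first and 0.00682 for the second.

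Sox1 and Sox21 had no loop in either list. The anchor nearest to Sox1 (chromosome 8, 12395519 to 12399555) was 87.1 kb away in sham and 9.27 kb away in MCAO, where it belonged to a 113 kb loop of 10 PETs. For Sox21 (chromosome 14, 118233233 to 118237030) the nearest anchor was 46.4 kb away in sham and 11.5 kb away in MCAO. The sham anchor near Sox21 led to an end of Tgds with 11 PETs, and the MCAO anchor led into the body of Abcc4, a transporter gene, with 14 PETs. Loops that passed over the gene without an anchor there numbered 2 in sham and 3 in MCAO at Sox1, and 0 and 3 at Sox21. With 3 MCAO and 1 sham loop within 100 kb of each of these genes, loops near them were few in both lists.

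The 2 genes without loops had the shortest distances between neighbours among the 7, though both were above the median of all genes. The distance between the protein-coding genes on either side was 290 kb around Sox1 and 103 kb around Sox21. Around the others it was 1040 kb at Sox4, 1231 kb at Sox6, 1673 kb at Sox2, 1785 kb at Sox5 and 1958 kb at Sox11, counting the gene itself. The median over all genes was 77.8 kb. Of the 956 genes whose neighbours lie at least 1 Mb apart, 63.5% had a gene-end loop in sham and 63.5% in MCAO. Of the 18206 genes with neighbours under 300 kb apart, 40.1% and 45.9% had one.

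Sox4, a SoxC factor of newborn neurons, had the largest share of loops with a counterpart among the 7 genes. All 3 sham loops had a counterpart in MCAO, and 3 of the 4 MCAO loops had one in sham. Sox4 lies on the minus strand of chromosome 13 at 28948919 to 28953699. On its downstream side, in the 797 kb without protein-coding genes between Prl5a1 and Sox4, a loop of 534 kb carried 35 PETs in sham and its 530 kb counterpart 17 in MCAO. Depth-scaled these are 1.00 and 0.419 PETs, a ratio of 0.419 (0.220 to 0.768). The far anchor was 22.0 kb wide in sham and 6.77 kb in MCAO. The ratio of densities was 0.703, but density divides the same PETs by the summed anchor widths and is not a separate measure. On the upstream side 2 loops in each list led into the body of Cdkal1, a large gene for a tRNA-modifying enzyme (29191746 to 29855683). The longer, of 878 kb in sham and 871 kb in MCAO, carried 13 and 28 PETs, a ratio of 1.86 (0.931 to 3.91) that includes 1.

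The other loop between Sox4 and Cdkal1 differed between the lists in PETs and in anchor width. In sham it carried 56 PETs, the most at any of the 7 genes in that list, and its nearest counterpart in MCAO carried 12, a ratio of 0.185 (0.0902 to 0.349). The sham anchors were 62.5 kb and 110 kb wide and the MCAO anchors 7.38 kb and 15.0 kb. By density the direction turned, with 0.00928 in sham and 0.0132 in MCAO. A further MCAO loop of 71 PETs joined 28997824 to 29064498 with 29536394 to 29669880 in Cdkal1. Its near anchor began 44.1 kb beyond Sox4, so it was not counted at the gene, yet it also matched the sham loop by the rule of 1 anchor width. Sham had a loop of its own there, of 28 PETs, joining 29001826 to 29044602 with 29593044 to 29653199. Both anchors of that sham loop lay inside those of the 71-PET loop, the near one 48.1 kb from Sox4. Summed over all loops that join the 100 kb around Sox4 with Cdkal1, sham had 97 PETs (78.7 to 118) in 3 loops and MCAO 111 (91.3 to 134) in 3 loops. Depth-scaled these sums were 2.77 and 2.74, a ratio of 0.987 (0.745 to 1.31). The 100 kb window was chosen after the values at Sox4 were seen. On the Cdkal1 side the loops counted at Sox4 itself carried 69 PETs in sham and 40 in MCAO. On both sides together they carried 104 and 68. The part of anchor width and placement in these counts was not tested.

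Sox4 also had the longest loop of the set. In MCAO 11 PETs joined 28938174 to 28973258 with 25912456 to 25934721, a span of 3032 kb, and the far anchor lay between Nrsn1 and Hdgfl1 in a 1498 kb stretch without protein-coding genes. It had no counterpart in sham and stood 1 PET above the minimum.

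Sox11, the second SoxC gene described, had 2 downstream loops with counterparts and none on its upstream side. With midpoints required within 25 kb, 1 in each list kept a counterpart, and within 0.5 anchor widths 0 did. Sox4 kept 3 and 3 under both rules. Sox11 lies on the minus strand of chromosome 12 at 27334268 to 27342718, with 854 kb to Cmpk2 downstream and 1095 kb to Dcdc2c upstream. The shorter downstream loop, of 200 kb in sham and 190 kb in MCAO, carried 12 and 20 PETs (ratio 1.44, 0.669 to 3.23). Its far anchors touched the noncoding gene Gm9866 in both lists. The longer, of 791 kb and 839 kb, carried 20 and 29 PETs (ratio 1.25, 0.684 to 2.33). Both intervals include 1. The MCAO anchor of the longer loop reached an end of Cmpk2, a nucleotide kinase gene, whereas the sham anchor stopped 27.2 kb from that gene.

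The remaining loops of Sox11 had no counterpart. In sham 36 PETs led 912 kb upstream to 28221108 to 28292987, and 12 PETs led 736 kb upstream to 28061975 to 28094096. In MCAO 11 PETs led 601 kb upstream to 27930468 to 27955070. A downstream loop of 31 PETs and 447 kb to 26851178 to 26900915 was listed in MCAO alone. Upstream PETs at Sox11 were thus 48 in sham and 11 in MCAO, and downstream PETs 32 and 80. With every loop within 100 kb of the gene counted, the upstream sums became 48 and 32 (ratio 0.575, 0.356 to 0.918) and the downstream sums stayed at 32 and 80 (2.16, 1.41 to 3.36). Summed anchor widths moved the same way, from 209 kb to 146 kb upstream and from 138 kb to 285 kb downstream.

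**Figure D2:**
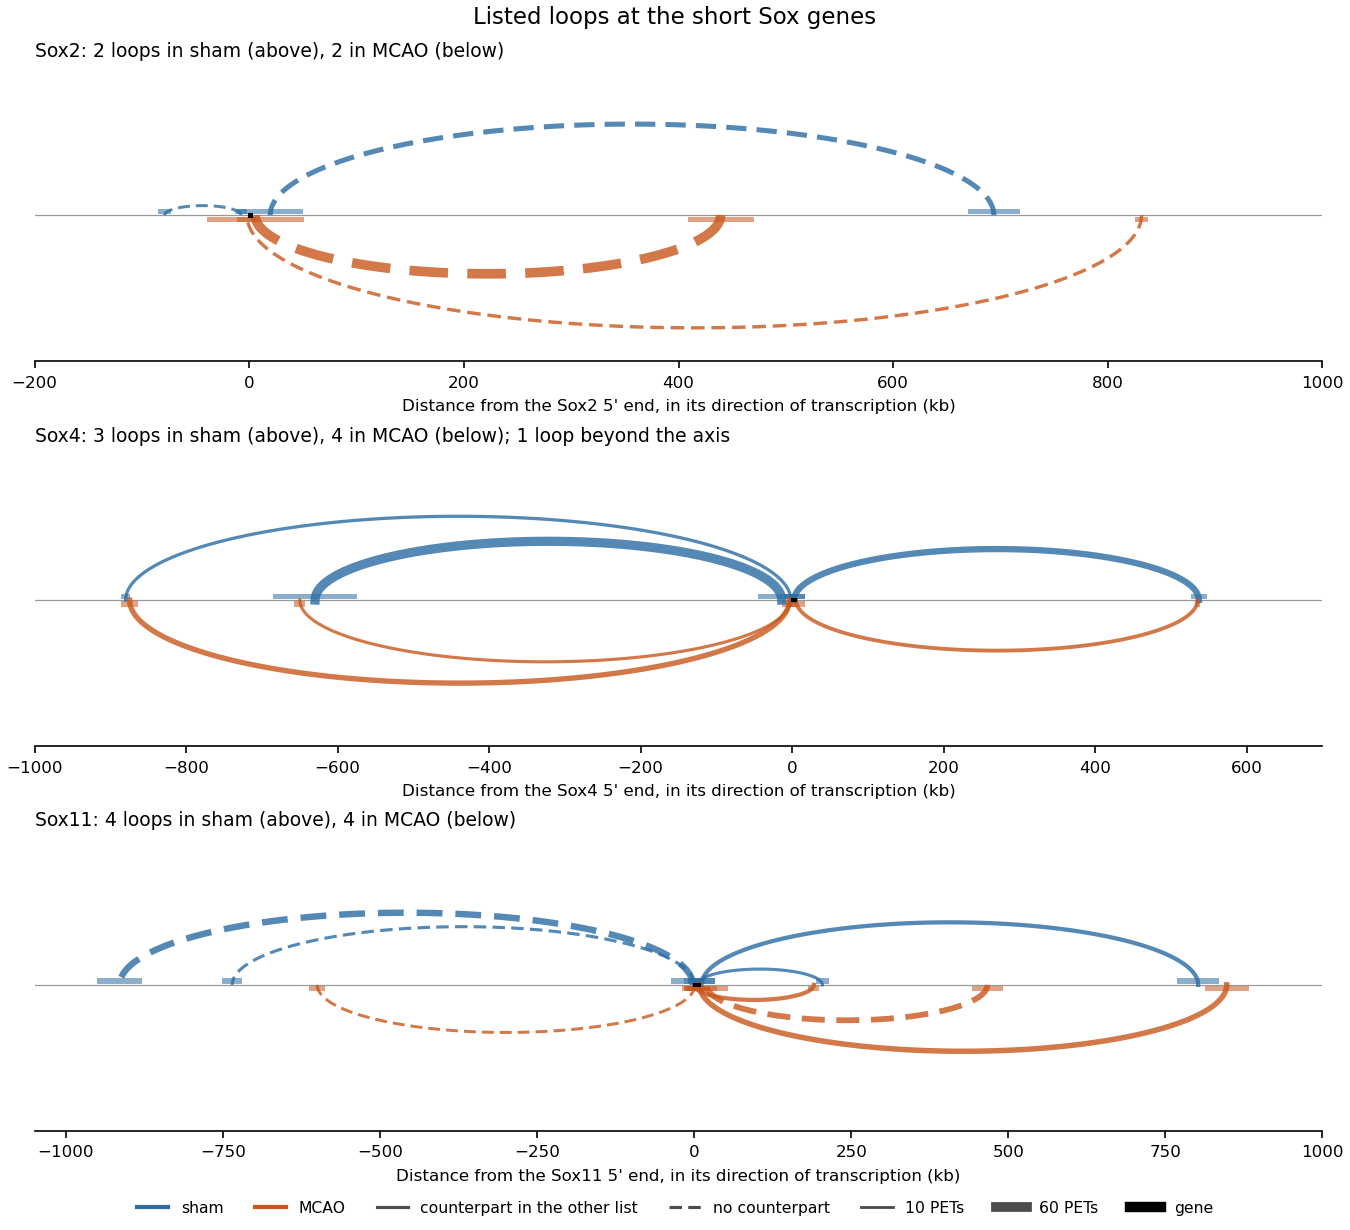
Loops at Sox2, Sox4 and Sox11 drawn by distance from the 5' end in kb along the direction of transcription, sham arcs above and MCAO arcs below the line, with wider lines for more PETs and shaded bars for anchors. Solid arcs have a counterpart in the other list. Sox4 has solid arcs on both sides, Sox11 downstream only and Sox2 none. The 3032 kb loop of Sox4 lies beyond the axis.

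Sox5, a SoxD gene that acts in deep-layer projection neurons, spans 954 kb of chromosome 6 (143828425 to 144782287, minus strand) in this annotation. It had 12 loops in sham and 7 in MCAO, 11 and 6 of them in the body alone. Loops with both anchors inside the gene numbered 6 in sham and 3 in MCAO. Median read coverage at its gene anchors, not scaled for depth, was 21.4 reads per kb in sham and 29.3 in MCAO. It was also higher in MCAO at Sox2, Sox4, Sox6 and Sox11. Long genes as a class also had fewer body loops in MCAO. Of the 226 protein-coding genes of at least 500 kb, 98.7% had a body loop in sham and 94.2% in MCAO, and the mean per gene was 7.17 and 5.65. A fall of at least 5 body loops, as at Sox5, occurred at 22.1% of these long genes.

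A single loop of Sox5 was found in both lists. It joined the body of Sox5 to the 620 kb without protein-coding genes between Etnk1 and Sox5, over 762 kb with 15 PETs in sham and 757 kb with 26 PETs in MCAO (ratio 1.49, 0.763 to 3.04). Its anchors in the gene were 144177372 to 144214159 in sham and 144153486 to 144208244 in MCAO. Anchors crowded there in both lists. The stretch 144204555 to 144205745 was covered by 4 anchors in MCAO, whose loops carried 61 PETs, and 3 sham anchors overlapped it. Sham had a second crowded stretch at 144352174 to 144357532, covered by 4 anchors with 52 PETs together, and no MCAO loop of Sox5 had an anchor there. Both stretches were chosen after their values were seen.

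Sox5 loops also led to the neighbouring genes. The sham loop with the most PETs, 31 over 954 kb, ended at Etnk1, an ethanolamine kinase gene. Another sham loop, of 19 PETs and 622 kb, ended at Bcat1, the gene for the cytosolic branched-chain aminotransferase. A sham loop of 18 PETs and 1016 kb stopped 19.4 kb from Bcat1. Its gene anchor, 143920260 to 143965248, was the only one in either list to cover the RefSeq start window inside Sox5. In MCAO 13 PETs over 812 kb led to Bcat1, from the crowded stretch that both lists share, and no loop led to Etnk1. The 5' end of the annotated gene had 1 loop in each list, both with the other anchor inside Sox5: 424 kb with 11 PETs in sham and 85.1 kb with 10 PETs in MCAO. The inner MCAO anchor touched the noncoding gene Sox5os3. Of the body loops with both anchors in Sox5, the sham list held one of 23 PETs and 324 kb, 2 of 10 PETs (80.0 kb and 511 kb) and 2 of 11 PETs (81.9 kb and 59.4 kb), and the MCAO list 2 of 11 PETs (328 kb and 528 kb). Further loops into the stretch toward Etnk1 carried 10 PETs over 373 kb and 11 PETs over 798 kb in sham, and 10 PETs over 891 kb and 12 PETs over 584 kb in MCAO. Most Sox5 loops thus stood within a few PETs of the listing minimum.

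Sox6, the second SoxD gene, had 7 loops in sham and 9 in MCAO, and nearly all of them led into the 620 kb without protein-coding genes that separates Sox6 from Insc downstream. Sox6 spans 570 kb of chromosome 7 (115470872 to 116040776, minus strand). In sham 6 of the 7 loops had their far anchor in that stretch, with 93 PETs, and in MCAO 8 of the 9, with 213 PETs. At the 5' end the start window printed above was covered by 3 anchors in sham and 4 in MCAO. The crowded stretches there, 116036652 to 116048663 in sham and 116031389 to 116047921 in MCAO, overlapped by 11270 bases. Loops over them carried 57 PETs in sham and 141 in MCAO.

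The strongest Sox6 loop carried 64 PETs in MCAO over 1110 kb, from 115969699 to 116065384 at the 5' end to 114853417 to 114961534, whose near edge lies 3.04 kb from Insc. Against its nearest sham counterpart, of 10 PETs and 1120 kb, the ratio was 5.52 (2.82 to 12.1). The MCAO anchors were 95.7 kb and 108 kb wide and the sham anchors 12.0 kb and 10.1 kb, and by density the direction turned (0.00774 in MCAO and 0.0129 in sham, ratio 0.599). A second sham loop, of 11 PETs, matched the same MCAO loop with a ratio of 5.02 (2.63 to 10.6), and there the density was also higher in MCAO (0.00531 in sham, ratio 1.46). Both matches held when anchors had to overlap, but not with midpoints within 25 kb. Under the 25 kb rule 1 Sox6 loop in each list kept a counterpart. The pair with the most even PETs joined the 5' end to a place 807 kb away in sham and 818 kb away in MCAO, with 24 and 20 PETs (ratio 0.719, 0.377 to 1.36). The interval includes 1. By density it was higher in MCAO, 0.0147 against 0.00734.

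Other Sox6 loops were listed on one side alone. The MCAO list held a loop of 47 PETs and 661 kb from the 5' end to 115325832 to 115402876, which lies 68.0 kb beyond the 3' end of the gene, without a counterpart. Body loops of 16 PETs to 115361982 to 115383953 and of 14 PETs to 115356567 to 115385424 ended within the same stretch, so 3 MCAO loops met there and no sham loop of Sox6 did. A sham loop of 23 PETs joined the 5' end to the gene's own body over 505 kb. Its MCAO counterpart, of 10 PETs, had its upstream anchor 38.9 kb beyond Sox6, over the neighbour 1110004F10Rik (ratio 0.375, 0.159 to 0.819). The 2 upstream anchors do not overlap. The loops matched only by the rule of 1 anchor width, not by overlap of anchors or midpoints within 25 kb. The ratio may therefore compare different contacts. The 3' end had a gene-end loop in sham alone, of 14 PETs and 302 kb. Body loops without a counterpart carried 23 PETs over 433 kb and 11 PETs over 670 kb in sham, and 29 PETs over 506 kb and 13 PETs over 758 kb in MCAO. At the 5' end of Sox6 the MCAO list also held a loop of 10 PETs over 930 kb. A gain of at least 2 body loops, as at Sox6, occurred at 19.9% of genes of at least 500 kb.

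**Figure D3:**
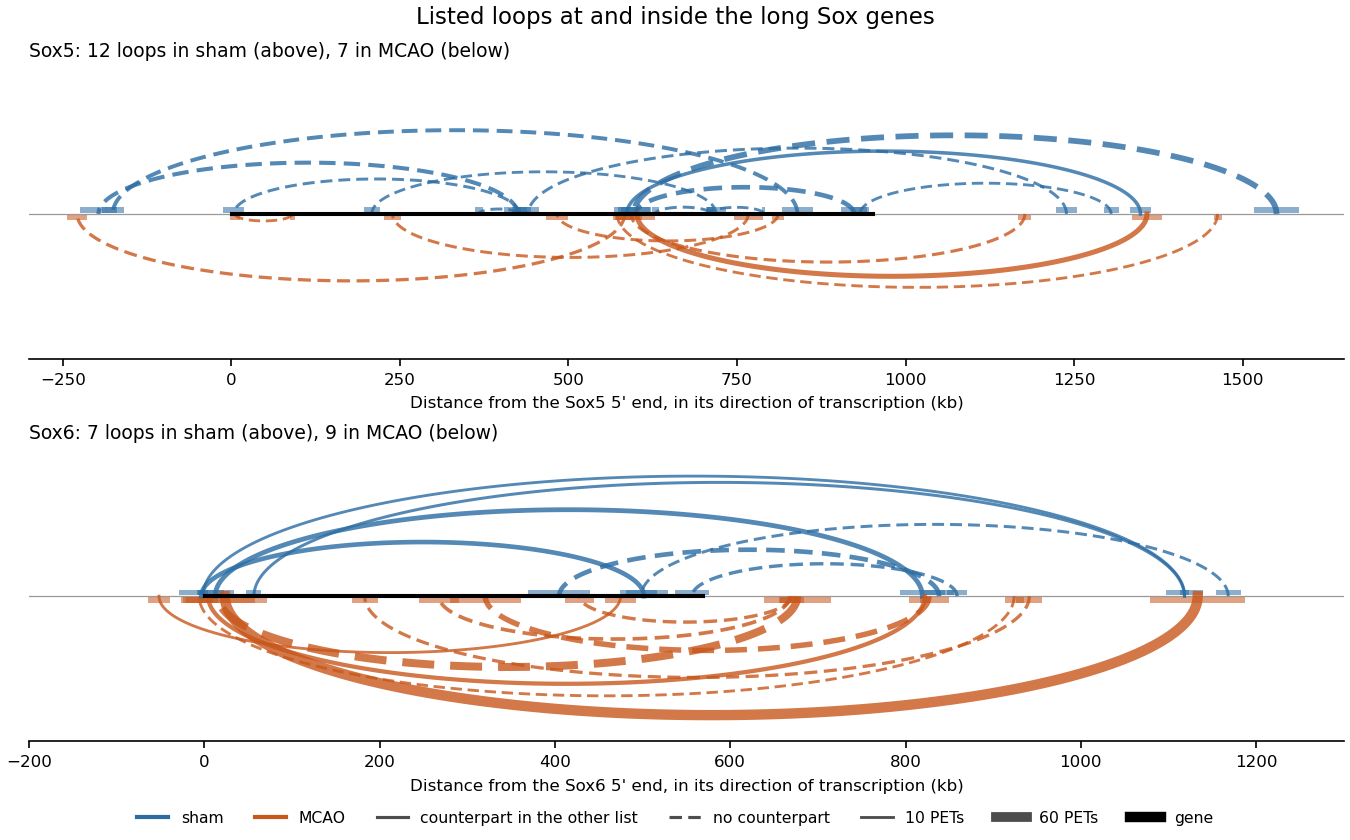
Loops at Sox5 and Sox6 by distance from the annotated 5' end in kb along the direction of transcription, sham above and MCAO below, with the gene as a black bar and wider lines for more PETs. Solid arcs have a counterpart in the other list. Sox5 has 1 solid arc in each list, and Sox6 loops fan out from its 5' end into the stretch beyond its 3' end.

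Counterparts were counted for all loops of the 7 genes with both anchor midpoints within 1 anchor width of those of a loop in the other list. In sham 10 of 28 loops had one, 35.7% (18.6 to 55.9), and in MCAO 9 of 26, 34.6% (17.2 to 55.7). Over all listed loops the shares were 25.6% and 24.9%, inside both intervals. The intervals treat loops as independent, but loops of the same gene often share an anchor. Gene-end loops of the Sox genes had a counterpart in 8 of 14 cases in sham, 57.1% (28.9 to 82.3), and in 7 of 15 in MCAO, 46.7% (21.3 to 73.4), beside 34.3% and 28.2% for gene-end loops of all genes. Among body loops it was 2 of 14 and 2 of 11. Sox loops of at least 15 PETs had a counterpart in 6 of 13 cases in sham and 7 of 12 in MCAO, and those under 15 PETs in 4 of 15 and 2 of 14. Over all listed loops the shares were 45.0% in sham and 39.8% in MCAO from 15 PETs on, and 14.7% and 14.9% below.

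Partner anchors lay mostly away from other genes. An anchor was placed in a gene desert when it touched no protein-coding gene and the genes on either side were at least 500 kb apart. Of the gene-end loops 10 of 14 in sham, 71.4% (41.9 to 91.6), and 11 of 15 in MCAO, 73.3% (44.9 to 92.2), led to a desert. Of gene-end loops at all genes 16.0% and 13.8% did so. The stretch beside most of these Sox genes is itself such a desert. At genes with neighbours at least 1 Mb apart, the shares were 52.8% and 50.4%, inside the intervals of the Sox genes. These intervals, too, treat loops of the same gene as independent. Over gene-end and body loops together 16 sham loops and 18 MCAO loops led to a desert. Protein-coding genes at the far anchors were few: Cdkal1 from Sox4, Cmpk2 from Sox11, Etnk1 and Bcat1 from Sox5, and 1110004F10Rik from Sox6. No listed loop joined 2 of the 7 Sox genes, which lie on 7 different chromosomes, and all listed loops were within a chromosome.

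Since an anchor can miss a short gene by a few kb, PETs were also summed over all loops with an anchor within 100 kb of each gene, a choice made after the values at Sox4 were seen. This gave 36 loops in sham and 38 in MCAO. Around Sox4 the sums were 147 PETs in sham and 165 in MCAO, a ratio of 0.968 (0.770 to 1.22), and around Sox11 80 and 112 (1.21, 0.898 to 1.63). Both intervals include 1. Around Sox5 the sums were 180 and 93 (0.446, 0.343 to 0.575), and around Sox6 150 and 237 (1.36, 1.11 to 1.68). Sox2 had 48 and 96 (1.72, 1.21 to 2.49), Sox1 12 and 33 (2.37, 1.19 to 5.04) and Sox21 11 and 36 (2.82, 1.41 to 6.15). The sums at Sox1 and Sox21 each rest on 1 sham loop and 3 MCAO loops. The widths of the anchors summed over loops moved with these PETs: from 711 kb to 375 kb at Sox5, 686 kb to 859 kb at Sox6, 153 kb to 261 kb at Sox2, 58.5 kb to 129 kb at Sox1 and 22.8 kb to 133 kb at Sox21. The sums hold only listed loops, and the part of the listing minimum and of anchor width in them was not tested. Such sums were not made for all genes. The ratios, with those by side at Sox11, therefore have no all-gene share beside them.

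**Figure D4:**
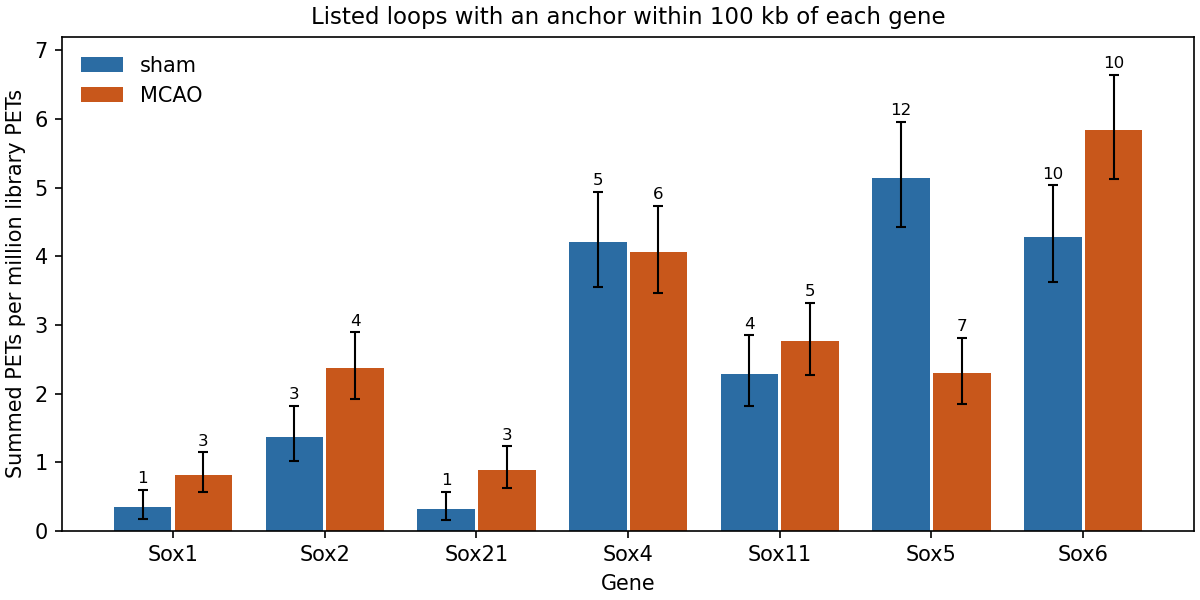
PETs summed over all listed loops with an anchor within 100 kb of each Sox gene, for every 1000000 PETs of the library (vertical axis from 0), sham in blue and MCAO in orange, with exact Poisson 95% intervals of counting error as bars and the number of loops above them. Sox5 stands higher in sham, Sox4 is level, and Sox2 and Sox6 stand higher in MCAO.

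Outside the set, the 13 other Sox genes had 7 gene-end loops in sham and 9 in MCAO. The number was higher in MCAO at 3 genes and lower at 2, and 8 had no such loop in either list. Sox9, a factor of astrocytes, had 3 and 6, Sox13 and Sox15 each 0 and 1, Sox12, the third SoxC gene, 3 and 1, and Sox14 1 and 0. Sox30 had 1 body loop in sham. The median difference, MCAO minus sham, was 0 for these genes, for the 7 genes described here and for all genes.

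From a list of genes that act with Sox factors in progenitors and neurons, 22 were counted and had 28 gene-end loops in sham and 42 in MCAO, counted per gene. MCAO had more at 12 genes and fewer at 3, another 3 had equal numbers and 4 had none. Over all 21883 genes such loops numbered 15296 in sham and 18573 in MCAO, with more in MCAO at 28.7% of genes and fewer at 20.7%. The POU factor genes Pou3f2 and Pou3f3, whose proteins bind DNA beside Sox proteins, each had 5 and 6 loops, and Pou3f1 had 1 and 1. Among genes of progenitors, Hes1 had 3 and 4, while Pax6, Notch1, Nes and Prom1 each had 0 and 1. Hes5 had 1 and 1, and Vim, a filament gene of radial glia, had 1 and 0. Of factors in newborn neurons, Eomes had 0 and 2, Neurog2 1 and 2, Insm1 1 and 1 and Neurod1 1 and 0. Among genes of cortical neurons, Bcl11b had 3 and 7, Tbr1 3 and 5, the microtubule gene Stmn1 2 and 3 and Elavl3 1 and 0. The genes without a gene-end loop were Pou3f4, Fezf2, Dcx and Tubb3. Body loops numbered 3 in sham and 0 in MCAO at Bcl11b, 0 and 1 at Prom1 and 1 and 0 at Dcx.

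At the border of the 2.5 kb rule, the upstream sham loop of Sox2 was the only one counted at a gene end whose anchor did not cover it. Just outside, a sham anchor lay 7452 bases from Sox2 with 11 PETs, an MCAO anchor 9267 bases from Sox1 with 10 PETs, and a sham anchor in the body of Sox5 7714 bases from its 3' end with 10 PETs.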

How the data were processed

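The submitters' processing notes name the build mm10 and the tools HiC-Pro and Bowtie2, without versions. The sources used here name no loop caller and do not say whether cortices were pooled. The authors deposited whole-number counts of PETs per loop and reads per anchor without scaling for depth. The deposited signal called density equals PETs per kb of both anchors for every 1000000 PETs, and the library totals were computed from it. Density thus divides the PETs by the summed anchor widths. Whether this corrects for anchor size was not tested. The authors also deposited an enrichment ratio and several p-value columns for each loop, of which the hypergeometric p-value served to rank loops within a list.

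Genes and promoter sequences came from RefSeq tables on GRCm38.p6, and all 7 genes matched by symbol. The nearest counterpart by summed midpoint distance was used for PET ratios. Shares have Clopper-Pearson intervals, PETs exact Poisson intervals and PET ratios exact binomial intervals. Whether PETs are independent molecules is not stated, and a loop enters a list only from 10 PETs, so these intervals may be too narrow. Loops of the same gene often share an anchor, so the intervals of shares may be too narrow for that reason as well. Gene placement and matching were tested on simulated data. Python 3.11.15, pandas 2.3.3 and scipy 1.17.1 were used. The 7 genes and the gene lists were chosen with earlier results of these data known. Genes were named when they were members, listed genes with a loop or genes at a partner anchor. From the list of genes that act with Sox factors 2 genes are not reported here and were left out of its counts.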

Additional observations from a re-analysis of the deposited data

How the results depend on the processing

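Of 34 alternative counts 21 were within 1.5 times the reported one. Gene-end loops went from 14 in sham and 15 in MCAO to 7 and 9 with at least 15 PETs. Among the loops that rank better by hypergeometric p-value, sham had 9. With any anchor within 100 kb, an alternative chosen after seeing the data, the counts were 36 and 38. Those counts also take in body loops, so they stand beside all 28 and 26 loops of the 7 genes. Body loops went from 14 and 11 to 6 and 3 with at least 15 PETs, to 8 and 3 among the better-ranked loops, and to 7 in MCAO with at least 12 PETs there, which matches depth. Higher minimums and the ranking keep fewer loops by construction. Loops with a counterpart went from 10 to 6 in sham with midpoints within 25 kb. Loops to a desert went from 16 and 18 to 3 and 4 when genes had to be at least 1 Mb apart. At Sox5 body loops were fewer in MCAO in 6 of 6 settings, by 4 to 8 loops, and at Sox6 more in 6 of 6, by 1 to 2. These settings include the reported count and draw on the same 2 lists, so they are not independent. The fall of 8 came from the minimum of 12 PETs set in MCAO alone. At the gene ends of Sox2, Sox6 and Sox11 the direction turned between settings. No paired analysis was possible because each group has 1 library.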
